A study of Mus musculus with 10 samples.

Results

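Glutamine metabolism and amino acid transport were followed through 9 genes listed by symbol: the enzymes Glul, Glud1, Asns and Got1, and the carrier subunits Slc1a5, Slc38a2, Slc3a2, Slc7a5 and Slc7a11. Of these, 8 had a row among the 15078 genes of the table and all 8 passed the filter on low values, while Slc7a11 had no row and was not analysed here. The genes were chosen by name and not by a cut on measured values, but with earlier results of these data known. RNA was sequenced from CD51+CD200+ stromal cells that were sorted from mouse bones into 3 groups. The study's gate for such cells also left out CD45+, Ter119+ and CD31+ cells, which would remove blood, red and endothelial cells. Graft BM-MSCs (n = 4) were Tomato+ marrow mesenchymal stem cells from transgenic (POSTN-CRE) femurs, taken 5 months after the femur was placed under the skin of a host mouse, and their treatment label was Tamoxifen induction. BM-MSCs (n = 3) came from the marrow and P-SSCs (n = 3) from the periosteum of Wild-type mice at steady state with no treatment, and these 6 libraries were shared with another series. In the grafted femurs, a tamoxifen-dependent Cre driven by the Postn gene switched on tdTomato. Postn is also used by other fibroblasts and bone-forming cells, so the label marks a past use of Postn and not a single cell type. Graft and steady-state mice thus differed in genotype, tamoxifen and transplantation together. Age may have differed as well, since graft cells were taken 5 months after transplantation and the labels give no exact age for steady-state mice. Sex and exact age of the mice were not given in the labels, and the mice were adult. Replicates of a group came from distinct mice, and BM-MSC 2+4 and P-SSC 2+5 each combined RNA of a pair of mice. Per the study's methods, periosteum was removed with a blade, cut and digested with enzymes for longer than flushed marrow. Tissue and its preparation thus cannot be told apart between P-SSCs and either marrow group.

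Reads assigned to genes numbered 15415421 to 25223295 per library, and a floor of 3 reads corresponded to 0.119 to 0.195 ppm, which covers counting error only. Values are normalized read counts, meaning a gene's reads divided by 1 size factor per library. Graft libraries held fewer genes with a read, 10624 ± 1001 (SD, n = 4), than BM-MSCs (12932 ± 358, n = 3) or P-SSCs (12771 ± 480, n = 3). Where the other libraries of a group all held 100 or more of a gene, the remaining one was at 0 for 0.898% to 8.78% of such genes in graft BM-MSCs and for at most 0.363% in the steady-state groups. The libraries also split by base composition. Genes with over 65% GC stood 1.69 to 2.80 (log2) above genes of 50% to 60% GC, relative to the mean over libraries, in the 4 graft libraries and 1.52 above them in P-SSC 4, but 1.51 to 1.81 below them in the 3 BM-MSC libraries, P-SSC 1 and P-SSC 2+5. For graft BM-MSCs against BM-MSCs this split and the group cannot be told apart. Marker genes followed the labels. The summed value of 6 marrow stroma genes (among them Cxcl12 and Lepr) was 667905 to 819818 in graft BM-MSCs and at least 830908 in BM-MSCs, against at most 8883 in P-SSCs, and that of 6 periosteal genes (among them Postn and Fmod) was 252047 to 456847 in P-SSCs and at most 15888 in marrow cells. Osteoblast markers summed to 580732 to 1264060 in BM-MSCs, 65410 to 96145 in graft BM-MSCs and 191238 to 427962 in P-SSCs, and neutrophil markers to at least 5624 in each marrow library and at most 110 in P-SSCs; their part in the results below was not tested. In bulk samples, fewer cells of a type and less RNA per cell cannot be told apart.

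Glutamine is the most abundant free amino acid in plasma, and cells use it as a source of nitrogen and carbon. Glutamine synthetase makes it from glutamate and ammonia, glutamate dehydrogenase and transaminases pass glutamate carbon to and from the tricarboxylic acid cycle, and asparagine synthetase and the hexosamine pathway spend its amide nitrogen. At the cell surface, sodium-driven carriers bring glutamine in, and exchangers built from the heavy chain Slc3a2 and a light chain trade it for leucine and other essential amino acids. When amino acids run short, the kinase Eif2ak4 raises translation of the transcription factor Atf4, which binds composite elements in promoters of biosynthetic enzymes and carriers, while amino acid supply is also sensed by mTORC1 at the lysosome.

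The promoters are shown first because several of these genes are textbook targets of that response. Windows of 250 bases before the RefSeq start (GRCm38.p6) were at hand for 7 of the 9 listed genes. The core letters of the amino acid response element, TGATGNAA, were searched on both strands, and 3.45% of all 32851 promoter windows held them. Of the measured genes with a window, Asns and Got1 held a match and Glul, Glud1, Slc38a2 and Slc3a2 held none. For Glul and Slc3a2 the bases after the window were not found in an annotated transcript of the gene. The Slc3a2 window (chr19:8713898-8714147) lies inside the gene's span given below, so these absences hold for the windows alone. The windows of Asns and Got1 are printed because they hold the match, and that of Glud1 because it is the gene that differed between the steady-state groups. Capitals mark the match, which lay 23 to 16 bases before the RefSeq start in Asns and, read on the opposite strand, 102 to 95 bases before it in Got1. The Asns match lies inside the gene's span given below, which reaches chr6:7693254, so it precedes the RefSeq start alone. The windows are Asns at chr6:7693210-7693459 (minus strand), Got1 at chr19:43524606-43524855 (minus strand) and Glud1 at chr14:34310477-34310726 (plus strand). The Glud1 window was 82.0% GC, against 61.6% in Asns and 54.4% in Got1. No window of the measured genes held CACGTG or TGACGTCA, the core letters of an E-box and of a cyclic AMP response element, which 6.02% and 1.55% of all windows held. A match is a description of letters and not a mapped binding site.
Asns: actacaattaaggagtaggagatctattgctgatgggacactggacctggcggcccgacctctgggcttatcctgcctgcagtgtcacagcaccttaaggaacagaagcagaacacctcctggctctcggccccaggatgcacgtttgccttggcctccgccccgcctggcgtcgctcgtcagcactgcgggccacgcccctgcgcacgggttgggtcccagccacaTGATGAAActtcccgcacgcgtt
Got1: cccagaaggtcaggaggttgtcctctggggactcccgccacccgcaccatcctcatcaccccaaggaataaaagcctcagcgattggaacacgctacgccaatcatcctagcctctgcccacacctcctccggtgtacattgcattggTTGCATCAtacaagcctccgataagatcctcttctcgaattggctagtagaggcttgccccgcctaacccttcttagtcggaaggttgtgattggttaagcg
Glud1: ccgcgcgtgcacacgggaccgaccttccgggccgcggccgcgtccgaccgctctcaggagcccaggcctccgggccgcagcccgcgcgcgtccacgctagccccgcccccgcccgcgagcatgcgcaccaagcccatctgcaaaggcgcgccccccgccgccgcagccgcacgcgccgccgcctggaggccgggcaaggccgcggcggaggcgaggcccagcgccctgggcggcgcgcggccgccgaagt

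Across the 3 groups, 2 of the 8 genes passed the test, each in 1 comparison. Slc1a5, a glutamine carrier, was 8.42-fold higher by group means in graft BM-MSCs than in BM-MSCs, and Glud1, glutamate dehydrogenase, was 14.7-fold higher in P-SSCs than in BM-MSCs. Without P-SSC 4 the latter ratio was 5.71 and was not called. The Slc1a5 call ended without any 1 graft or BM-MSC library. Its values followed the base composition split, which cannot be told apart from the group in that comparison. Between graft BM-MSCs and P-SSCs no member passed the test in limma (0 of 8, where 18.1% of all genes tested were called), 3 (Glul, Slc1a5 and Slc7a5) had an unadjusted p under 0.05, as did 32.8% of all genes, and edgeR and DESeq2 on recovered reads also called 0. Between graft BM-MSCs and BM-MSCs 1 of 8 was called, where 7.67% of all genes were called and 2.61% were called higher. Between P-SSCs and BM-MSCs it was also 1 of 8, where 9.15% were called and 4.57% were called higher. Values of graft BM-MSCs and P-SSCs did not overlap for 2 members, Slc7a5 and Got1, both lower in graft BM-MSCs, where 26.6% of all genes did not overlap, 8.06% higher and 18.5% lower. Those of graft BM-MSCs and BM-MSCs did not overlap for 2, Glud1 and Slc1a5, both higher in graft BM-MSCs (25% of all genes, 10.3% higher), and those of P-SSCs and BM-MSCs for 3, Glud1, Slc7a5 and Got1, all higher in P-SSCs (30.9% of all genes, 15.1% higher). The median log2 change of the 8 genes was -1.10 in graft BM-MSCs against P-SSCs, 0.04 in graft BM-MSCs against BM-MSCs and 0.83 in P-SSCs against BM-MSCs. Over all genes tested it was -0.47, -0.53 and 0.00, so that a change near -0.5 in a graft comparison is that of the median gene. The comparisons share libraries and are not independent of each other. With the scaling of edgeR the median gene stood at 0.03 against P-SSCs and -0.05 against BM-MSCs.

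**Figure D1:**
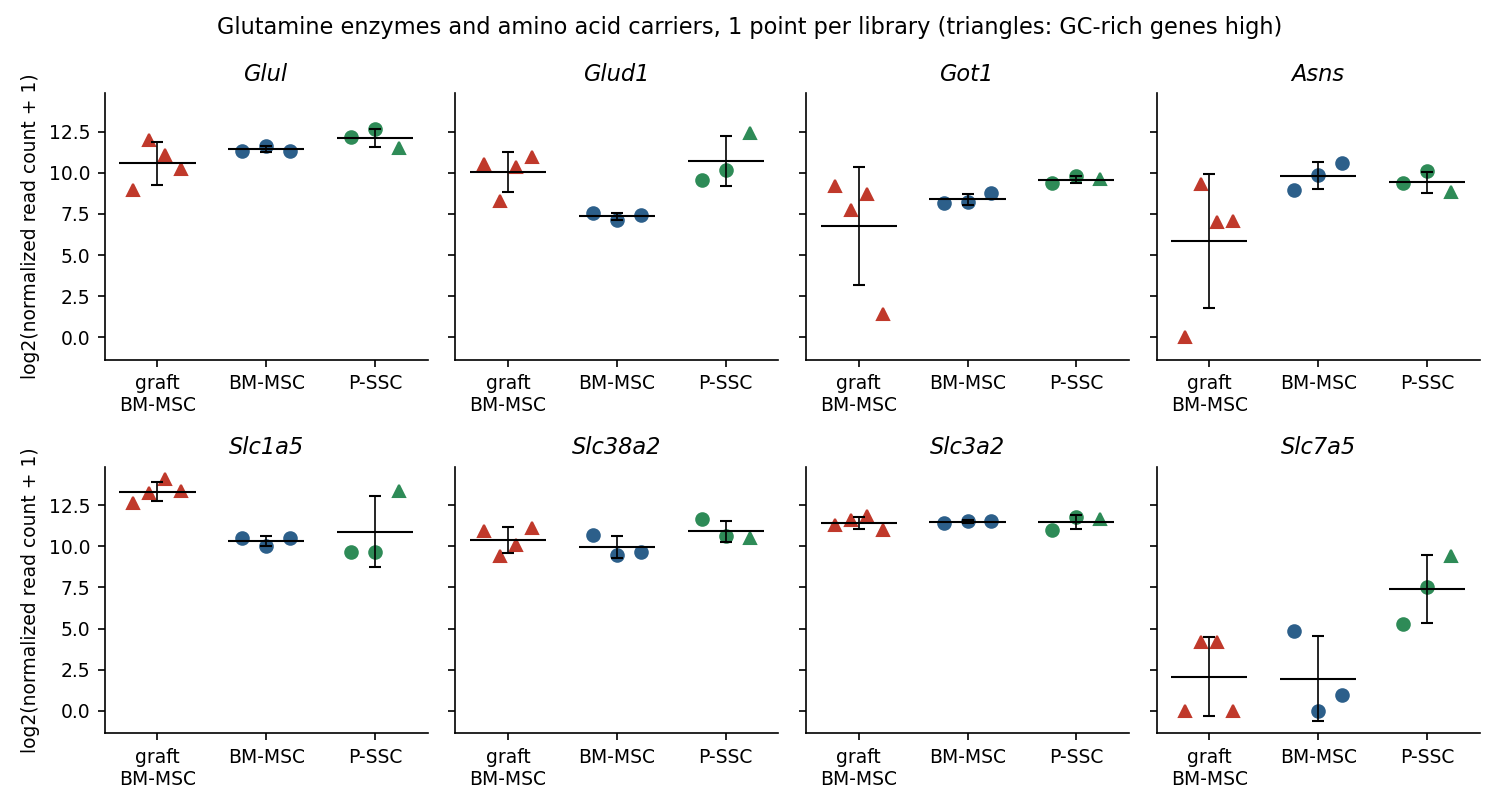
Normalized read counts of the 8 measured genes on a log2(value + 1) scale, 1 point per library, for graft BM-MSCs (red, n = 4), BM-MSCs (blue, n = 3) and P-SSCs (green, n = 3), with the group mean and SD in black. Triangles are libraries in which GC-rich genes stood high and circles those in which they stood low. Slc1a5 separates triangles from circles, Glud1 lies lowest in the 3 BM-MSC libraries, and Slc3a2 is level.

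Glul, the glutamine synthetase gene (ENSMUSG00000026473, chr1:153899944-153909723, plus strand), was among the genes with the highest values of the set. Its normalized read counts were 486, 4109, 2149 and 1211 in graft BM-MSCs 1 to 4. They were 2587, 3185 and 2510 in BM-MSCs 1, 2+4 and 3, and 4566, 6316 and 2897 in P-SSCs 1, 2+5 and 4. P-SSC 1 and 2+5 were above every marrow library, while P-SSC 4 lay inside the range of both marrow groups, and graft libraries spread over most of the range. Against P-SSCs, graft BM-MSCs had a log2 change of -1.53 ± 0.60 (SE, adjusted p = 0.103, limma). Without graft BM-MSC 2, the graft library with the highest value, it was -2.01 with an adjusted p of 0.0225. P-SSCs against BM-MSCs gave 0.67 ± 0.64 (SE, adjusted p = 0.779, limma). Among the 5 libraries with GC-rich genes low, which leave out P-SSC 4, the change between P-SSCs and BM-MSCs was 0.97 with an adjusted p of 0.0454 in limma.

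Glud1 encodes the mitochondrial enzyme that interconverts glutamate and 2-oxoglutarate (ENSMUSG00000021794, chr14:34310727-34345265, plus strand), and the promoter printed above ends at this start. It was 187, 139 and 169 in BM-MSCs 1, 2+4 and 3, the narrowest and lowest group. The P-SSC libraries 1, 2+5 and 4 held 737, 1145 and 5401, and graft BM-MSCs 1 to 4 held 1496, 306, 1299 and 1986. Every P-SSC and every graft library thus lay above every BM-MSC library. The log2 change of P-SSCs against BM-MSCs was 3.33 ± 0.81 (SE, adjusted p = 0.0267, limma), with a 95% interval of 1.53 to 5.13. Graft BM-MSCs against BM-MSCs gave 2.66 ± 0.76 (SE, adjusted p = 0.0609, limma), and graft BM-MSCs against P-SSCs -0.67 ± 0.76 (SE, adjusted p = 0.569, limma). P-SSC 4 was 5.74-fold above the mean of the other P-SSC libraries. Among the libraries with GC-rich genes low, the difference between P-SSCs and BM-MSCs was 2.48 and was called. It kept its direction in all 24 alternatives (2.48 to 3.92) and was called in 16 of them, and the call ended on leaving out any 1 of BM-MSC 1, BM-MSC 2+4, BM-MSC 3, P-SSC 2+5 or P-SSC 4 (adjusted p from 0.0533 to 0.0949, limma). The graft difference from BM-MSCs was called without graft BM-MSC 2 (adjusted p = 0.0206) and without P-SSC 4 (adjusted p = 0.0246), and ranged from 0.11 to 3.52 over 23 alternatives.

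Got1, the cytosolic aspartate aminotransferase of the malate-aspartate shuttle (ENSMUSG00000025190, chr19:43499752-43524605, minus strand), was 649, 880 and 780 in P-SSCs 1, 2+5 and 4. It was 287, 298 and 427 in BM-MSCs and 579, 208, 412 and 1.73 in graft BM-MSCs 1 to 4, where the last value is 2 reads. All P-SSC libraries were above all marrow libraries. P-SSCs against BM-MSCs gave a log2 change of 1.20 ± 1.64 (SE, adjusted p = 0.907, limma), an error that holds the spread of graft BM-MSC 4. When only these groups were fitted, it was called (adjusted p = 0.0343, limma). Graft BM-MSCs against P-SSCs gave -2.82 ± 1.54 (SE, adjusted p = 0.232, limma), which became -1.05 without graft BM-MSC 4, and against BM-MSCs -1.62 became 0.15 without it. Skeletal muscle markers moved with the periosteal libraries: all 5 measured were above 0 in each P-SSC library, with a sum of 349 to 1403, against at most 1.69 in marrow libraries, and their part in the result was not tested.

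Asns makes asparagine from aspartate with the amide nitrogen of glutamine (ENSMUSG00000029752, chr6:7675169-7693254, minus strand). Its values were 0, 641, 127 and 135 in graft BM-MSCs 1 to 4, against 501, 940 and 1553 in BM-MSCs and 660, 1089 and 447 in P-SSCs. Graft BM-MSC 2 lay among the steady-state libraries and the other 3 graft libraries lay below all of them. The log2 change was -3.97 ± 1.75 against BM-MSCs (SE, adjusted p = 0.187, limma) and -3.57 ± 1.75 against P-SSCs (SE, adjusted p = 0.186, limma). Leaving out graft BM-MSC 1, the library at 0, gave -2.01 and -1.62. P-SSCs and BM-MSCs differed by -0.40, with an interval from -4.54 to 3.74, which is wide because all groups share 1 estimate of the spread.

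**Figure D2:**
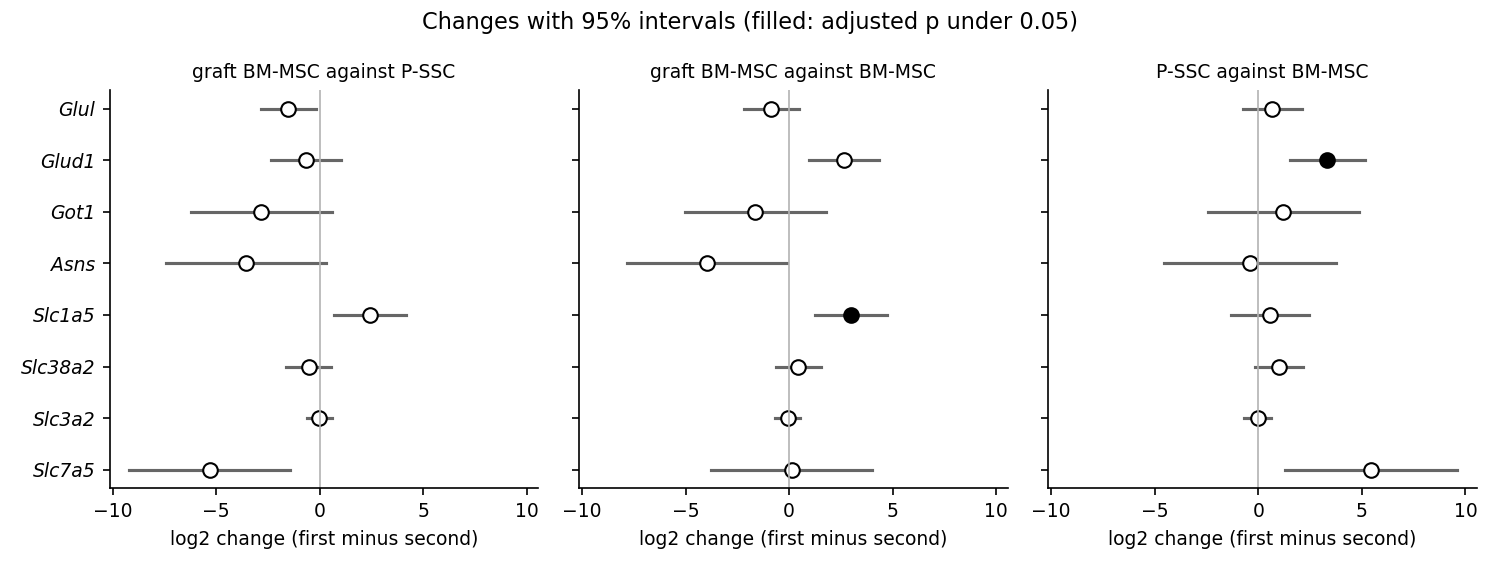
Log2 change of each measured gene in the 3 comparisons (points) with its 95% interval from limma (lines), filled where the adjusted p was under 0.05. Filled points are Slc1a5 in graft BM-MSCs against BM-MSCs and Glud1 in P-SSCs against BM-MSCs, and Slc3a2 has the narrowest intervals around 0.

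Slc1a5 (ASCT2), the sodium-dependent exchanger of glutamine and other neutral amino acids (ENSMUSG00000001918, chr7:16781340-16798274, plus strand), had the highest graft values of the set. Graft BM-MSCs 1 to 4 held 6318, 9575, 17243 and 10474, and BM-MSCs held 1420, 1010 and 1454. P-SSCs 1 and 2+5 held 806 and 792, while P-SSC 4 held 10592, inside the graft range and 13.3-fold the mean of the other P-SSC libraries. The log2 change of graft BM-MSCs against BM-MSCs was 3.00 ± 0.79 (SE, adjusted p = 0.0449, limma) and against P-SSCs 2.43 ± 0.79 (SE, adjusted p = 0.0560, limma). Leaving out P-SSC 4 made the latter 3.68 with an adjusted p of 0.000194, and turned P-SSCs against BM-MSCs from 0.57 to -0.68, neither of which was called.

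These values followed the base composition split of the libraries without exception. The 5 libraries with GC-rich genes high held 6318 to 17243 and the 5 with GC-rich genes low held 792 to 1454. The exons of Slc1a5 are 56.7% GC, against a median of 49.7% over genes tested. That places Slc1a5 among the genes of 50% to 60% GC and not among those over 65% that define the split. The part of its GC content in the result was not tested. With the split as a covariate, which P-SSC 4 alone informs, the log2 change of graft BM-MSCs was -0.73 against BM-MSCs and -0.05 against P-SSCs. With a correction for GC content by loess, which also moved the level of each library as a whole, it was 3.85 and 3.38, and both were called. The call against BM-MSCs ended without any 1 of the 4 graft or 3 BM-MSC libraries (adjusted p from 0.0614 to 0.160, limma). Over 23 alternatives it was made in 11, and edgeR gave an adjusted p of 0.0897. Of the other genes, Glud1 and Slc7a5 were also highest in P-SSC 4 among P-SSCs, 5.74-fold and 6.04-fold above the mean of the others, whereas Slc3a2 (1.17-fold) and Got1 (1.02-fold) were not apart there and Glul, Asns and Slc38a2 were lower (0.533-fold, 0.511-fold and 0.615-fold).

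**Figure D3:**
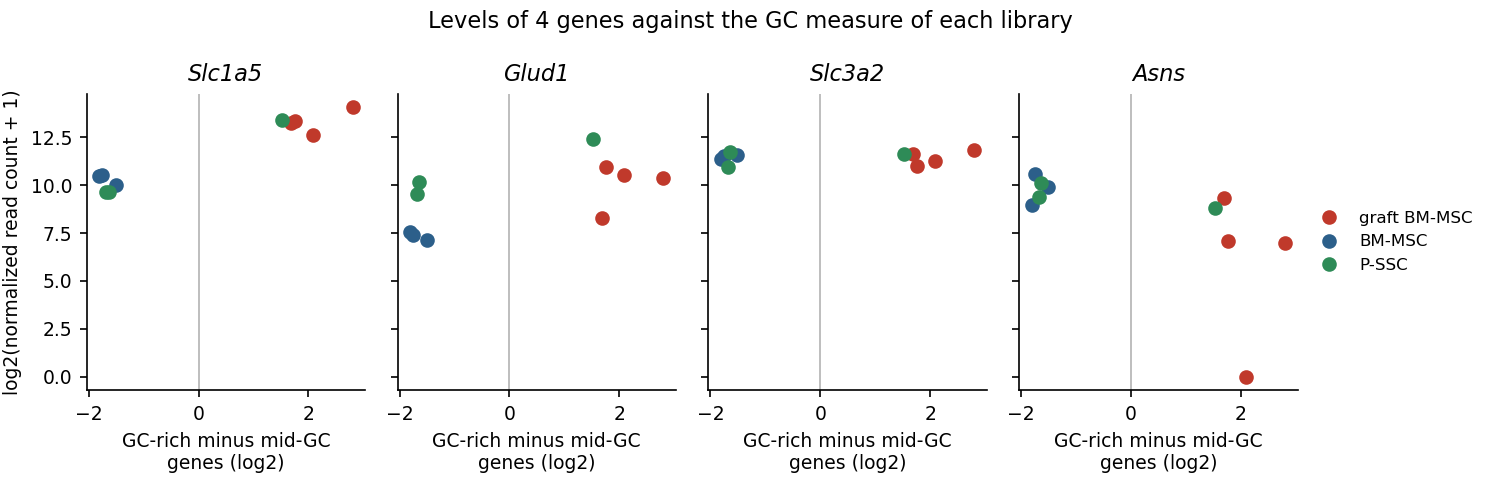
Level of Slc1a5, Glud1, Slc3a2 and Asns (y axis, log2(normalized read count + 1)) against the mean of genes with over 65% GC minus that of genes with 50% to 60% GC in the same library (x axis, log2), 1 point per library. Slc1a5 falls into the same 2 sets as the x axis, with P-SSC 4 beside the graft libraries, while Slc3a2 is level along it.

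Slc38a2 (SNAT2), a sodium-coupled importer of small neutral amino acids (ENSMUSG00000022462, chr15:96687392-96699730, minus strand), was 1940, 686, 1075 and 2157 in graft BM-MSCs 1 to 4. It was 1647, 717 and 785 in BM-MSCs and 3211, 1539 and 1460 in P-SSCs. The groups overlapped in all 3 comparisons. The log2 change was 0.99 ± 0.52 in P-SSCs against BM-MSCs (SE, adjusted p = 0.387, limma), with a 95% interval of -0.17 to 2.14, and it was not called in any of 24 alternatives.

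Slc3a2 (CD98 heavy chain), which carries amino acid exchangers to the membrane and also binds integrins (ENSMUSG00000010095, chr19:8706882-8723369, minus strand), was the steadiest gene of the set. Graft BM-MSCs 1 to 4 held 2455, 3123, 3637 and 2022, BM-MSCs 2661, 3005 and 2908, and P-SSCs 1983, 3424 and 3153. Group means were 2809, 2858 and 2853. The 95% interval of the log2 change was -0.66 to 0.54 in graft BM-MSCs against BM-MSCs, -0.62 to 0.58 against P-SSCs and -0.68 to 0.61 in P-SSCs against BM-MSCs. The direction of these small differences turned with the scaling, and after the GC correction graft BM-MSCs stood 0.90 above BM-MSCs and 0.99 above P-SSCs on the log2 scale, neither of which was called.

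Slc7a5 (LAT1), the light chain that exchanges glutamine for leucine and other large neutral amino acids (ENSMUSG00000040010, chr8:121881150-121907694, minus strand), was detected mostly in the periosteum. P-SSCs 1, 2+5 and 4 held 38.4, 182 and 666. BM-MSCs held 28.2, 0 and 0.986, and graft BM-MSCs 1 to 4 held 0, 16.9, 17.1 and 0, so that every P-SSC library was above every marrow library. P-SSCs against BM-MSCs gave a log2 change of 5.45 ± 1.88 (SE, adjusted p = 0.116, limma), which was not called in any of 23 alternatives. Graft BM-MSCs against P-SSCs gave -5.32 ± 1.75 (SE, adjusted p = 0.0604, limma), and it was called without graft BM-MSC 2 (adjusted p = 0.0474) and with a pseudocount of 5. Of 4 measured endothelial markers, 2 were above 0 in P-SSCs, with a sum of 3269 to 6871, against 134 to 228 in BM-MSCs and 0 in graft BM-MSCs. Tek made up nearly all of it (3254 to 6869), while Cdh5 was 2.08 to 58.6 and Emcn and Tie1 were at 0 in every P-SSC library.

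Since Slc3a2 transports amino acids only together with a light chain, its light chains were compared per kb of exon. Slc7a11, also such a light chain, had no row, so the sums, ratios and shares here leave it out. The heavy chain stood above the summed light chains Slc7a5, Slc7a6, Slc7a7, Slc7a8 and Slc7a10 in every library, 3.53 to 6.62 times in graft BM-MSCs, 2.20 to 3.27 times in BM-MSCs and 1.61 to 2.08 times in P-SSCs. These ranges did not overlap. The light chain sum was 134 to 169 per kb in graft BM-MSCs, 231 to 375 in BM-MSCs and 349 to 475 in P-SSCs, so that it overlapped between the steady-state groups. Slc7a6 (y+LAT2), which exchanges cationic for neutral amino acids, made up 49.6% to 96.6% of the light chains in marrow libraries and 27.1% to 58.6% in P-SSCs. Slc7a5 made up at most 3.40% in marrow libraries and 2.97% to 41.9% in P-SSCs. Slc7a8 (LAT2), a carrier of neutral amino acids, was lower in graft BM-MSCs than in P-SSCs (log2 change -5.60 ± 1.55, SE, adjusted p = 0.0302, limma), a call made in 10 of 23 alternatives. The sums were not tested.

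**Figure D4:**
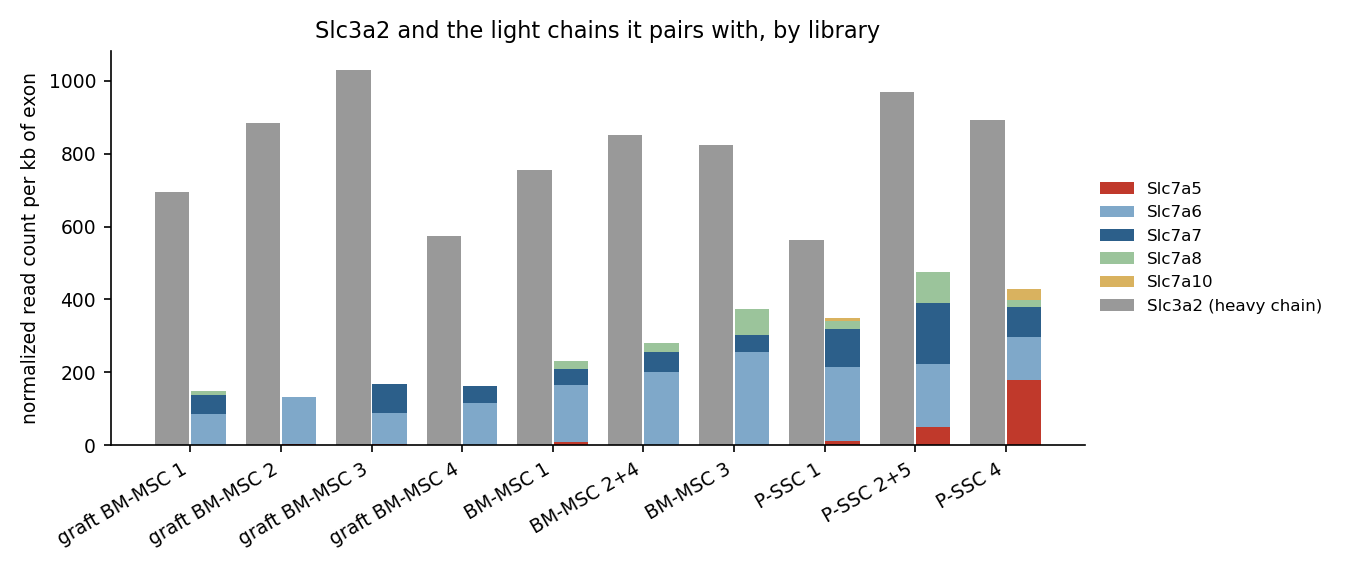
Normalized read count per kb of exon of the heavy chain Slc3a2 (grey bars) and of its measured light chains (stacked colored bars, without Slc7a11, which had no row) in each of the 10 libraries. Grey bars overlap between the groups. The stacks are lowest in graft BM-MSCs, those of BM-MSC 3 and P-SSC 1 overlap the other steady-state group, and Slc7a5 (red) is largest in P-SSC 4.

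Per kb of exon, the order of the genes differed between groups. In BM-MSCs Glul (831 ± 111 per kb, SD, n = 3) and Slc3a2 (810 ± 50.2) led and did not differ beyond their spread, followed by Asns (365 ± 193) and Slc1a5 (310 ± 59.2), which overlapped, then Got1 (133 ± 30.6) and Slc38a2 (119 ± 58.6), which overlapped, then Glud1 (39.2 ± 5.72) and Slc7a5 (2.62 ± 4.32). In P-SSCs Glul led (1382 ± 514 per kb, SD, n = 3), with Slc1a5, Slc3a2 and Glud1 next, and the values of P-SSC 4 spread Slc1a5 (190 to 2538) and Glud1 (175 to 1283) across their neighbours in this order. In graft BM-MSCs Slc1a5 led (2613 ± 1100 per kb, SD, n = 4) above every value of Slc3a2 (796 ± 202), while Glul (599 ± 472) overlapped with Slc3a2 and with Glud1 (302 ± 168), and Slc38a2, Got1 and Asns overlapped below them. Slc7a5 was last in each group.

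Other genes of glutamine, amino acid transport and amino acid sensing were read from 7 lists with 131 tested genes in all. In graft BM-MSCs against P-SSCs, 25 of them changed (19.1%), 3 higher and 22 lower, where 6.08% of all genes were called higher and 12% lower. In graft BM-MSCs against BM-MSCs 11 changed (8.40%), all lower, where 5.06% of all genes were called lower. In P-SSCs against BM-MSCs 6 changed (4.58%), 3 higher and 3 lower. These shares were near those of all genes tested in both graft comparisons and below it in the steady-state one. The count of 25 became 12 in edgeR and 28 in DESeq2, ranged from 10 (without P-SSC 1) to 29 (without P-SSC 4) with 1 library left out, and was 12 (7 higher, 5 lower) after the GC correction. The count of 11 became 4 in edgeR, 20 in DESeq2 and 10 (7 higher, 3 lower) after the GC correction, and ranged from 3 (without BM-MSC 2+4 or BM-MSC 3) to 17 (without P-SSC 4), with 6 without BM-MSC 1, 7 without graft BM-MSC 3 and 7 without P-SSC 1. The count of 6 ranged from 3 to 9, being 3 without any 1 BM-MSC library or without P-SSC 1, 4 without P-SSC 2+5 and 9 without graft BM-MSC 2. The direction of the calls in the graft comparisons thus turned with the GC correction. That correction also moved each library as a whole, the median gene included, and the part of either in the turn was not tested.

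Among 23 glutamine and glutamate enzymes, Gfpt2 had the largest difference in both comparisons with P-SSCs. This gene encodes an enzyme that spends glutamine to open the hexosamine pathway, the source of sugars for glycoproteins and proteoglycans. P-SSCs 1, 2+5 and 4 held 57969, 57039 and 34594, against 337, 546 and 247 in BM-MSCs and 278, 0, 509 and 580 in graft BM-MSCs 1 to 4. By group means P-SSCs were 132-fold above BM-MSCs and 146-fold above graft BM-MSCs, with no overlap. Graft BM-MSCs against P-SSCs gave a log2 change of -8.99 ± 1.84 (SE, adjusted p = 0.00669, limma), which held in 22 of 23 alternatives. P-SSCs against BM-MSCs gave 7.08 ± 1.97 with an adjusted p of 0.0502, which missed the threshold in limma and was past it in 12 of 24 alternatives, among them edgeR, DESeq2 and the fit without graft BM-MSC 2, the library at 0 (adjusted p = 1.17e-05). This last comparison of Gfpt2 was described after its values were seen. Its paralog Gfpt1 had a log2 change of 0.41 in P-SSCs against BM-MSCs (adjusted p = 0.912, limma).

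Aldh18a1, which turns glutamate toward proline, was 390 to 856 in graft BM-MSCs, 1788 to 3404 in BM-MSCs and 2386 to 3667 in P-SSCs. It was lower in graft BM-MSCs than in P-SSCs (log2 change -2.27 ± 0.34, SE, adjusted p = 0.00106, limma) and than in BM-MSCs (-2.11 ± 0.34, SE, adjusted p = 0.00601, limma). After the GC correction these were -1.26 and -1.15 and no longer called. No other of the 23 enzymes was called in a graft comparison, and 0 were called in P-SSCs against BM-MSCs, where 2 had an unadjusted p under 0.05 in limma and edgeR and DESeq2 called 1 each. Of 14 enzymes of serine, glycine and branched-chain amino acids, Bckdk, the kinase that restrains branched-chain oxidation, was lower in graft BM-MSCs than in P-SSCs (-1.27 ± 0.39, SE, adjusted p = 0.0470, limma), a call made in 5 of 23 alternatives, and 0 of the 14 were called in the other comparisons. At an unadjusted p under 0.05, limma gave 5 against BM-MSCs, with 0 called by edgeR and 1 by DESeq2, and 0 in P-SSCs against BM-MSCs, with 0 by both tools. Over all genes, limma called 7.67% in graft BM-MSCs against BM-MSCs, with 25.5% at an unadjusted p under 0.05. In P-SSCs against BM-MSCs these shares were 9.15% and 18.7%.

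Plasma membrane carriers of amino acids changed in both directions. Of 23 tested, graft BM-MSCs had 2 above P-SSCs (Slc6a6 and Slc36a2) and 4 below (Slc7a4, Slc7a8, Slc16a10 and Slc38a4), where 6.08% and 12% of all genes were called. They had 3 below BM-MSCs (Slc7a4, Slc38a3 and Slc38a5), where 5.06% of all genes were called lower. P-SSCs had 1 above BM-MSCs (Slc38a4) and 3 below (Slc6a6, Slc36a2 and Slc38a5), where 4.57% and 4.58% were called. Slc36a2, a proton-coupled carrier of glycine and proline, was 1417 to 4521 in graft BM-MSCs and 3118 to 3388 in BM-MSCs, against 153 to 443 in P-SSCs. Its log2 change was 3.55 ± 0.46 in graft BM-MSCs against P-SSCs (SE, adjusted p = 0.000436, limma), which was called in all 23 alternatives, and -3.88 ± 0.49 in P-SSCs against BM-MSCs (SE, adjusted p = 0.000578, limma). Slc6a6, the taurine carrier, was 4923 to 13115 in graft BM-MSCs, 3736 to 5213 in BM-MSCs and 441 to 2134 in P-SSCs, and was also higher in both marrow groups (log2 change 3.46 in graft BM-MSCs against P-SSCs, adjusted p = 0.00118, and -2.49 in P-SSCs against BM-MSCs, adjusted p = 0.0181, limma). Against BM-MSCs, graft BM-MSCs gave -0.32 for Slc36a2 (adjusted p = 0.687, limma) and 0.97 for Slc6a6 (adjusted p = 0.280, limma). Slc7a4, a member of the cationic carrier family without a settled substrate, was at 0, 0, 0 and 0.863 (1 read) in graft BM-MSCs 1 to 4, against 117 to 339 in BM-MSCs and 58.6 to 223 in P-SSCs, and was called lower in both graft comparisons.

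Slc38a5 (SNAT5), a glutamine carrier of the same family as Slc38a2, was 134, 640 and 2329 in BM-MSCs 1, 2+4 and 3 and had no read in any graft or P-SSC library. Against a floor of 3 reads per library, BM-MSCs were at least 421-fold higher than graft BM-MSCs and at least 315-fold higher than P-SSCs, bounds that fell to 157-fold and 118-fold without BM-MSC 3. Red cell markers were also highest in BM-MSCs. Their sum over 7 genes was 58774 to 211332, against 1483 to 27755 in graft BM-MSCs and 202 to 1407 in P-SSCs. Chondrocyte markers were too. Their sum over 6 genes was 33828 to 73989, against 656 to 3884 in graft BM-MSCs and 703 to 1740 in P-SSCs. Over BM-MSCs 1, 2+4 and 3 the red cell sums were 71054, 58774 and 211332, highest where Slc38a5 was highest. The chondrocyte sums were 65366, 73989 and 33828, lowest in that library. The part of either list in the result was not tested. Among 13 lysosomal and mitochondrial carriers, Slc25a12, a mitochondrial exchanger of aspartate for glutamate, was 1517 to 1976 in P-SSCs, 300 to 581 in BM-MSCs and 6.90 to 435 in graft BM-MSCs, and was lower in graft BM-MSCs than in P-SSCs (-4.55 ± 1.24, SE, adjusted p = 0.0285, limma). Slc38a10 and the cystine exporter Ctns were also lower in that comparison, by log2 changes of -1.46 and -1.78, and Slc25a11 was higher. Slc38a10 was also lower than in BM-MSCs, the 1 gene of the list called there, in a call made in 9 of 23 alternatives, and was -0.38 and not called after the GC correction. Against P-SSCs the GC correction gave -3.79 for Slc25a12 (adjusted p = 0.0673, limma), -0.94 for Ctns and -0.58 for Slc38a10, none of them called. In P-SSCs against BM-MSCs 0 of the 13 were called, with 0 at an unadjusted p under 0.05 in limma and 0 by edgeR and DESeq2. Over all genes there, limma called 9.15%, and 18.7% had an unadjusted p under 0.05.

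The amino acid response list held 20 tested genes. Atf4, its central transcription factor, was 4544, 4657 and 3000 in P-SSCs 1, 2+5 and 4, against 1841, 1828 and 1934 in BM-MSCs and 3317, 2223, 3027 and 2424 in graft BM-MSCs 1 to 4. It was higher in P-SSCs than in BM-MSCs (log2 change 1.10 ± 0.25, SE, adjusted p = 0.0203, limma) in a call made in 13 of 24 alternatives. Ppp1r15a, which ends the stress arrest of translation, was 6339 to 15536 in P-SSCs against 1214 to 1914 in BM-MSCs (2.81 ± 0.46, SE, adjusted p = 0.00244, limma) and 1557 to 5249 in graft BM-MSCs, where it was lower than in P-SSCs (-1.85 ± 0.43, SE, adjusted p = 0.0131, limma). Trib3, a pseudokinase induced by Atf4, was 308 to 538 in P-SSCs and 23.7 to 144 in BM-MSCs, and was at 0 in 3 graft libraries and 95.8 in the remaining one (adjusted p = 0.0174 against P-SSCs, limma). Ddit3, a transcription factor of the same response, was 189 to 326 in graft BM-MSCs, 653 to 736 in BM-MSCs and 548 to 653 in P-SSCs, and was lower in graft BM-MSCs in both comparisons. Against BM-MSCs its log2 change was -1.47, called in 13 of 23 alternatives, and -0.72 without a call after the GC correction, where Ppp1r15a against P-SSCs was -0.86 and not called. Gcn1, the activator of Eif2ak4, was lower than in P-SSCs (-3.03 ± 0.93, SE, adjusted p = 0.0473, limma), in a call made in 4 of 23 alternatives, and Ddit4, a stress-induced inhibitor of mTORC1, was lower than in BM-MSCs (-5.21 ± 1.31, SE, adjusted p = 0.0391, limma), in 10 of 23. In all, 4 of 20 were lower in graft BM-MSCs than in P-SSCs and 2 lower than in BM-MSCs, where 12% and 5.06% of all genes were called lower. These became 1 and 0 in edgeR. After the GC correction the calls were 1 higher (Cebpg) and 1 lower (Trib3) against P-SSCs, and 2 higher (Atf4 and Cebpg) and 1 lower (Ddit4) against BM-MSCs. The first count was 0 without P-SSC 1 or without P-SSC 2+5 and 2 without any 1 BM-MSC library, and the second was 0 without P-SSC 1 or any 1 BM-MSC library. Beside the higher Atf4 and Ppp1r15a, Asns was not called in P-SSCs against BM-MSCs. Its log2 change of -0.40 had an interval from -4.54 to 3.74, too wide to give a direction. In P-SSCs against BM-MSCs 30.9% of all genes tested did not overlap, 15.1% higher and 15.8% lower. Without overlap, Trib3, Atf5 and Vldlr were also higher in P-SSCs than in BM-MSCs, while Eif4ebp1 and Ddit4 were lower. None of these was called in limma, and neither a shared response of the list nor the part of tissue preparation was tested.

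Cytosolic aminoacyl-tRNA synthetases, which charge tRNAs with amino acids, were lower in graft BM-MSCs for 8 of 19 genes against P-SSCs (Aars, Eprs, Hars, Kars, Nars, Sars, Wars and Yars) and for 3 of 19 against BM-MSCs (Eprs, Sars and Yars), where 12% and 5.06% of all genes were called lower. The list median was -1.26 and -1.08, against -0.47 and -0.53 over all genes. Eprs was 381 to 1667 in graft BM-MSCs, 2365 to 2968 in BM-MSCs and 2252 to 2947 in P-SSCs, and Yars was 546 to 1229, 2099 to 2500 and 2334 to 2852. Yars had a log2 change of -1.66 ± 0.29 against P-SSCs (SE, adjusted p = 0.00262, limma). The count of 8 was 3 in edgeR and 8 in DESeq2, ranged from 2 (without P-SSC 1 or without P-SSC 2+5) to 9 (without graft BM-MSC 3), and was 0 after the GC correction, where the median was -0.34 beside 0.28 for all genes. In P-SSCs against BM-MSCs 0 of 19 were called, 0 had an unadjusted p under 0.05 in limma, and edgeR and DESeq2 called 0. Of 20 genes of mTORC1 amino acid sensing, 0 were called in graft BM-MSCs against P-SSCs, where 3 had an unadjusted p under 0.05 in limma, edgeR called 0 and DESeq2 called 1. Over all genes in that comparison, limma called 18.1%, and 32.8% had an unadjusted p under 0.05. A single gene, Rragb, was lower in graft BM-MSCs than in BM-MSCs (adjusted p = 0.0499, limma). It was at 0 in every graft library and 30.6 to 55.4 in BM-MSCs. Over 23 alternatives of that comparison, 0 to 1 genes of the list were called lower and 0 to 2 higher. In P-SSCs against BM-MSCs 0 of the 20 were called, with 0 at an unadjusted p under 0.05 in limma and 0 by edgeR and DESeq2. Over all genes in P-SSCs against BM-MSCs, limma called 9.15%, and 18.7% had an unadjusted p under 0.05.

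**Figure D5:**
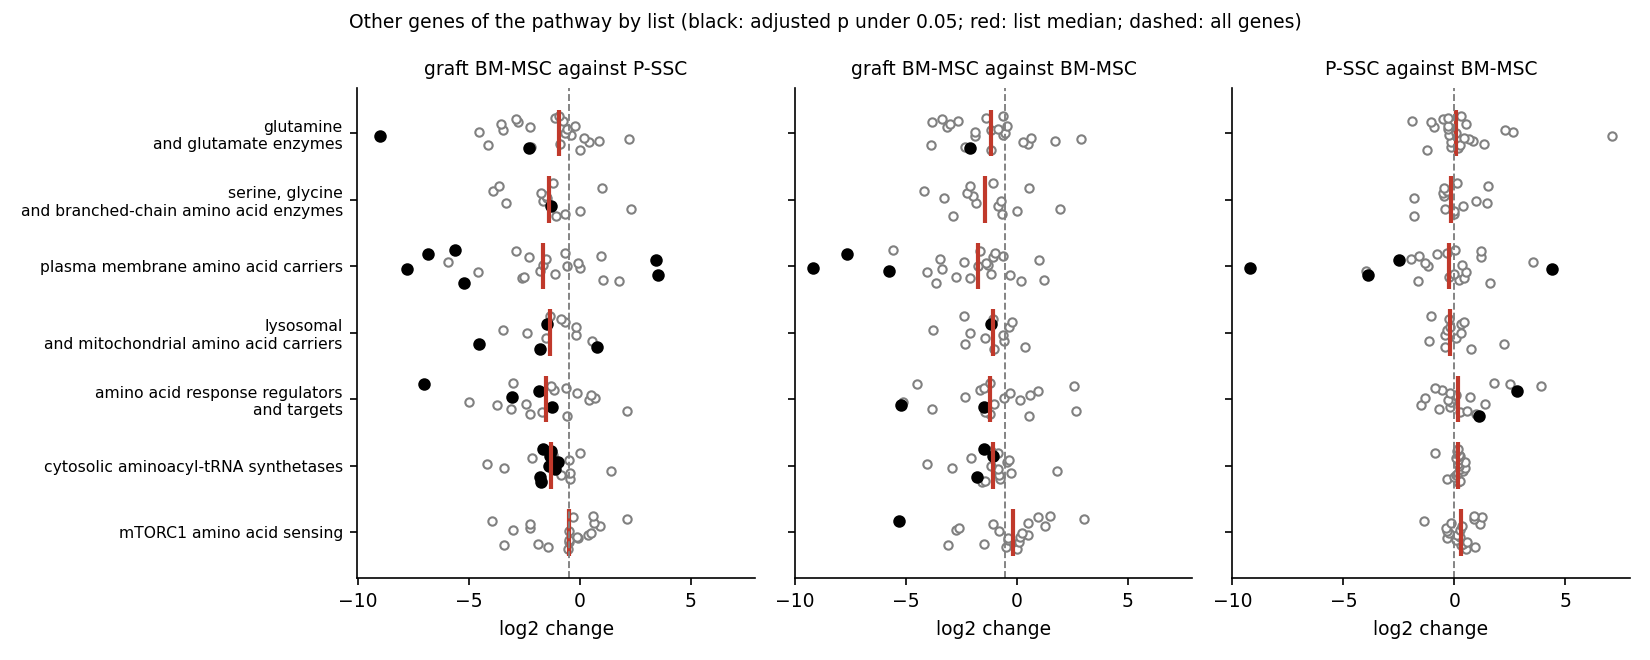
Log2 changes of the other 131 tested genes by list (rows) in the 3 comparisons (panels), 1 point per gene, black where the adjusted p was under 0.05 in limma, with the list median in red and the median of all genes tested as a dashed line. All list medians but that of mTORC1 sensing lie left of the dashed line in the graft panels and close to it in P-SSCs against BM-MSCs, and the black points of the synthetases lie between -1.76 and -0.96 against P-SSCs.

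For each member the gene with the nearest profile over the 10 libraries was taken from 9546 genes with a mean of at least 100, as the smallest root mean square difference of centred log2(value + 1). Slc3a2 lay nearest to Fbxw17 (0.18), Slc1a5 to Pgls (0.33), Slc38a2 to Mat2a (0.33), Glul to Ten1 (0.36) and Glud1 to Sod3 (0.55). Distances were larger for Got1 with Dis3l (0.64), Asns with Wdr73 (0.68) and Slc7a5 with Add3 (1.83), whose graft or BM-MSC values held zeros or few reads. The exons of Pgls, nearest to Slc1a5, are 57.4% GC. The points share libraries, depth and base composition, and the distances are descriptions without a test.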

How the data were processed

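RNA sequencing values of 10 libraries were used. The authors deposited 1 signal value per gene and library, which is a read count divided by a size factor. Per the study's methods, reads were mapped to GRCm38 with STAR, while the submitters' processing notes name GRCm39, STAR 2.5, featureCounts of Subread 1.4.6 and DESeq2 1.26.0; the sources differ, and annotation release, strand setting and filters are not given in the sources used here. Reads of antisense or overlapping genes may therefore not be told apart. Values of each library were whole multiples of 1 step, so whole reads were recovered for 100% of values (tolerance 0.01). Ensembl IDs of 15052 genes (99.8%) were found in GENCODE M21 (GRCm38), which gave coordinates, exon length and GC content, and RefSeq gave the promoters.

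The test was limma 3.58.1 (empirical Bayes with trend, two-sided) on log2(value + 1), a scale that understates changes of low genes. A single library at or near 0 can also enlarge a change on this scale. For Got1 in graft BM-MSCs against BM-MSCs it was -1.62, beside a ratio of group means of 0.889. It used genes with a mean of at least 10 (13644 tested, 1434 removed), 1 mean per group and 7 residual degrees of freedom. Benjamini-Hochberg adjustment covered all genes tested, with a threshold of 0.05. No library was dropped or imputed in this fit. Fits were tested on simulated data. Alternatives were pseudocounts of 0.1 and 5, other filters, quantile normalization, median centring, edgeR 4.0.16 and DESeq2 1.42.0 on recovered reads, fits of the 2 groups compared, each library left out, a replicate block, a covariate for the base composition split and a loess correction for GC content (span 0.3). The GC correction subtracted the whole fitted curve from each library, so that it changed the scaling between libraries too. Chosen after seeing the data were the GC correction with the block and the fit of libraries with GC-rich genes low.

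Genes named were the members and, per pathway list and comparison, up to 3 genes with the largest change among those with an adjusted p under 0.05 and a mean of at least 100. Other genes named were picked after their values were seen: Slc6a6 in graft BM-MSCs against P-SSCs, Slc16a10, Slc38a3, Slc38a4, Slc25a11, Gfpt1, Rragb, Slc7a6, Cebpg, Ddit3 against P-SSCs and the synthetases beyond Aars, Eprs, Yars and Sars. So were Atf5, Vldlr and Eif4ebp1, and Trib3 and Ddit4 in P-SSCs against BM-MSCs. Members and lists were chosen with earlier results of these data known, and 1 enzyme of the pathway is not reported here.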

Additional observations from a re-analysis of the deposited data

How the results depend on the processing

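Of the values of members under alternatives, 480 kept their direction and their side of the threshold, 18 gained a call, 19 lost it and 40 changed sign. Causes were not tested except where fewer libraries were fitted. Graft BM-MSCs against P-SSCs had 2464 genes called, which became 1531 in edgeR, 1081 with the base composition covariate, 269 with the replicate block, 401 with the GC correction and block, and 1583 to 3005 with 1 library left out. Against BM-MSCs, 1046 became 316 in edgeR, 1947 in DESeq2, 40 with the covariate, 3 with the block, 3 with GC correction and block, and 476 (without BM-MSC 2+4; 477 without BM-MSC 3) to 1584 (without P-SSC 4) with 1 library left out. P-SSCs against BM-MSCs had 1248, which became 619 in edgeR, 54 with the block, 72 with GC correction and block, 2040 among libraries with GC-rich genes low, and 917 to 1495 with 1 library left out. The share of calls that were higher in graft BM-MSCs was 33.7% against P-SSCs and became 50.1% with quantile normalization and 61.4% with the GC correction. Against BM-MSCs it was 34.0% and became 57.5% with quantile normalization, 47.1% in DESeq2 and 71.4% with the GC correction.

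Members called in graft BM-MSCs against P-SSCs went from 0 to 2 with a pseudocount of 5, and to 1 with a mean of at least 100, quantile normalization, median centring or the GC correction, with 0 to 2 on leaving out 1 library. Against BM-MSCs the count of 1 became 0 with a pseudocount of 0.1, edgeR, the covariate, the block or GC correction and block, and 2 with quantile normalization, median centring, DESeq2, the 2 groups alone or the GC correction, with 0 to 2 on leaving out 1 library. In P-SSCs against BM-MSCs 1 became 0 with the covariate, the block or GC correction and block, and 2 with the 2 groups alone or among libraries with GC-rich genes low, with 0 to 1 on leaving out 1 library.

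Log2 changes that turned sign belonged to differences that were not called, except Slc1a5 in graft BM-MSCs against BM-MSCs, which was -0.73 with the covariate. Against P-SSCs, Glud1 was 0.17 with the GC correction and 0.56 with the block added, and -1.25 to 0.18 on leaving out 1 library. Slc1a5 was -0.051 with the covariate, and Slc38a2 was 0.071 with the GC correction and 0.33 with the block added. Slc3a2 was 0.33 with quantile normalization, 0.050 in edgeR, 0.99 with the GC correction and 0.75 with the block added, and -0.26 to 0.13 on leaving out 1 library. Against BM-MSCs, Glul was 0.029 with the covariate. Slc7a5 was -0.15 with a pseudocount of 0.1, -0.031 with median centring, -0.23 in edgeR, -0.18 in DESeq2, -1.65 with the block, -2.84 with the covariate, -0.89 with GC correction and block, and -0.84 to 1.59 on leaving out 1 library (-0.57 without graft BM-MSC 3). Slc3a2 was 0.11 with quantile normalization, 0.90 with the GC correction, 0.82 with the block added, and -0.19 to 0.087 on leaving out 1 library. Got1 was 0.30 with GC correction and block, and -2.43 to 0.15 on leaving out 1 library. In P-SSCs against BM-MSCs, Slc1a5 was -0.68 with the covariate, -0.68 among libraries with GC-rich genes low, and -0.68 to 1.19 on leaving out 1 library (1.18 without P-SSC 1). Slc3a2 was 0.011 in DESeq2, 0.038 with the block, 0.072 with GC correction and block, and -0.19 to 0.20 on leaving out 1 library (-0.13 without P-SSC 4).

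Deviations of same-numbered libraries from their group means correlated at -0.019 to 0.030 over 13644 genes, which gave no sign of pairing. Whether libraries with the same number share a mouse is not given in the labels. These correlations rest on few libraries per group and cannot decide it. The block fit left 2 residual degrees of freedom, and calls lost under it are no sign of a weaker effect. The base composition split could be separated from the groups only through P-SSC 4. Without a gene's reads in a library, levels under 0.119 to 0.195 ppm could not be seen.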
